A study of Brassica rapa subsp. pekinensis with 2 samples.

Results

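miR845 and miR829 were examined in 2 small RNA libraries of Chinese cabbage, 1 from anthers (‘Ant’) and 1 from whole seedlings (‘Mix’). Members were taken by name, as every entry named miR845 or miR829, with or without a letter after the number and whatever the species prefix, arm or edit suffix. The rule found 5 entries with 5 distinct sequences, 3 of miR845 and 2 of miR829, among 1152 distinct sequences of the deposited table. ‘Ant’ was made from anthers of mixed developmental stages, and ‘Mix’ from whole plants with 4 true leaves, roots, stems and leaves together. Both came from the double haploid (DH) line ‘FT’, and the labels give 20 days of vernalization at 4 °C before sowing for both. The study's methods state it for the ‘Ant’ plants and not for the ‘Mix’ plants, so the groups may also differ in vernalization, which cannot be told apart from the tissue. Whole anthers were used, so pollen was not separated from the tapetum and the anther wall, and ‘Mix’ does not separate its organs. Defining markers of these tissues are messenger RNAs, which were not analysed here, so the labels were not checked against them.

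Each group had 1 library, so no value has a replicate error and a test on the reads compares 2 libraries, not 2 tissues. Reads on distinct listed sequences came to 1346716 in ‘Ant’ and 1393755 in ‘Mix’, and a library listed at 0 allows up to 3 reads, 0.000223% and 0.000215% of these totals. The 95% intervals below express the counting error alone. Fewer cells of a type and less RNA per cell cannot be told apart in such bulk samples.

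As background, a plant miRNA is cut from the stem of a hairpin precursor by a Dicer-like enzyme, which leaves a duplex of a 5′ arm and a 3′ arm, and the kept strand guides an ARGONAUTE protein to complementary RNA. In Arabidopsis, miR845 is known from pollen. It is complementary to the primer binding site of long terminal repeat retrotransposons, where the 3′ end of a transfer RNA starts reverse transcription, and it triggers small RNAs from these transposons. miR829 is a young miRNA that was also described first in Arabidopsis. The prefixes ath and aly in the names stand for Arabidopsis thaliana and Arabidopsis lyrata, whose entries in miRBase gave the names. The suffix p5 or p3 gives the arm of a sequence that the authors listed as new against miRBase, and ss marks substitutions against the miRBase sequence.

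The 5 sequences are shown because all results below rest on them. They are printed as DNA letters from 5′ to 3′, with the seed, bases 2 to 8, in capitals.
ath-miR845a: cGGCTCTGataccaattgatg
aly-MIR845a-p5_1ss17GA: aCGTCGATtggtgtcaaagcc
ath-MIR845b-p3_2ss16AT18GT: tCTGATACcaaattgttt
ath-MIR829-p5_2ss9GA17TC: aCTTTGAAactttgatct
aly-miR829-5p_R-3_1ss9TA: aCTTTGAAactttgattt
Both miR829 sequences shared the seed CTTTGAA, and each miR845 sequence had a seed of its own. The 2 sequences listed on the miR845a hairpin had 21 nt and the other 3 had 18 nt. ath-miR845a was identical to the miRBase sequence of Arabidopsis thaliana. The miR829 sequences were identical over their first 16 bases and differed by C17T, with the letter of ath-MIR829-p5_2ss9GA17TC first and positions counted from the 5′ end. No member shared its sequence with another name.

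The listed hairpins are shown next, with the 2 arms in capitals, because the names of the arms and their pairing differ between the loci. Positions are those of the authors' table, and no gene annotation was read at them. The study's methods name a Brassica rapa reference genome for its long RNA libraries, and whether the small RNA positions use the same build is not given in the sources used here.
A01:10905318-10905445, plus strand: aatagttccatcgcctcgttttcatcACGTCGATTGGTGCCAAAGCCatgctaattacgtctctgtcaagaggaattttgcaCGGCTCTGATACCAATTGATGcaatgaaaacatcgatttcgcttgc
A06:1612559-1612702, plus strand: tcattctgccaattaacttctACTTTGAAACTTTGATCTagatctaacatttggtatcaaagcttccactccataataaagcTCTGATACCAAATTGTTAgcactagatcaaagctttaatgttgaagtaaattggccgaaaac
The hairpin on A01 has 128 nt and holds aly-MIR845a-p5_1ss17GA on the 5′ arm, at bases 27 to 47, and ath-miR845a on the 3′ arm, at bases 83 to 103. The hairpin on A06 has 144 nt and holds ath-MIR829-p5_2ss9GA17TC at bases 22 to 39 and ath-MIR845b-p3_2ss16AT18GT at bases 83 to 100. A miR829 name and a miR845 name therefore stood on 1 hairpin. aly-miR829-5p_R-3_1ss9TA had no genome match in the table.

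In the listed structure, the arms on A01 paired with each other through 17 base pairs. Each arm ended 1 base short of the base facing the first base of its partner, where a Dicer product usually has a 3′ overhang of 2 nt. The arms on A06 formed 0 pairs with each other. ath-MIR829-p5_2ss9GA17TC paired with bases 106 to 123 through 16 pairs, and ath-MIR845b-p3_2ss16AT18GT paired with bases 45 to 61, also through 16 pairs. The 2 named sequences on A06 thus lie in different stretches of the stem and, in that structure, are not the 2 strands of 1 duplex.

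**Figure D1:**
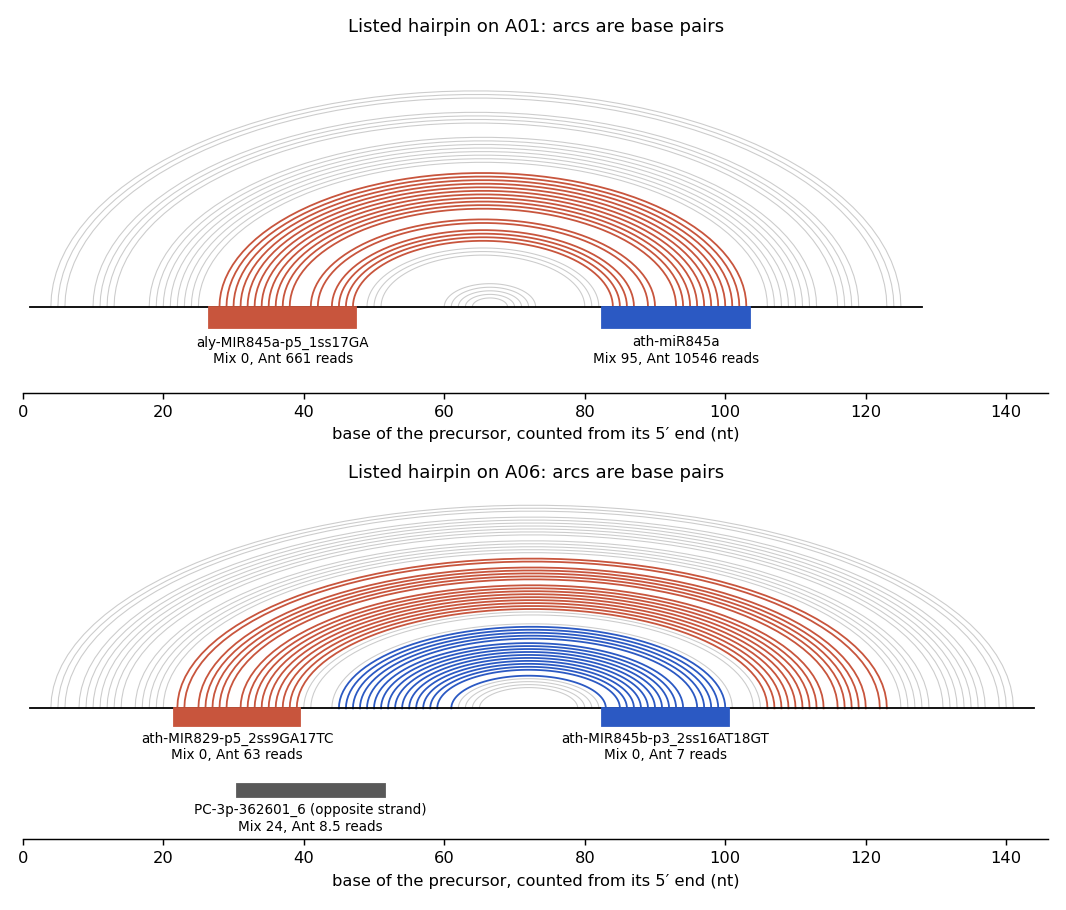
Listed hairpins on A01 and A06, with bases counted from the 5′ end on the horizontal axis, base pairs as arcs and the member sequences as boxes with their reads. On A01 the 2 boxes are joined by 17 arcs, and on A06 the 2 boxes each pair elsewhere and share 0 arcs; the grey box under A06 is the opposite-strand sequence PC-3p-362601_6.

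Reads and hairpin were not identical at every base. ath-miR845a and ath-MIR829-p5_2ss9GA17TC matched their hairpins in full. The read listed as aly-MIR845a-p5_1ss17GA differed from the A01 hairpin by C14T, the letter of the hairpin first, at a base that is unpaired in the listed structure and faces an A of the 3′ arm. ath-MIR845b-p3_2ss16AT18GT differed from the A06 hairpin by A18T at its last base. Whether these reads came from another locus or carry an altered base was not tested.

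The A06 hairpin was nearer to the miRBase hairpin of ath-MIR829 than to that of ath-MIR845b. Its best local alignment to ath-MIR829 had 144 columns with 75% identical letters, and that to ath-MIR845b had 72 columns with 66.7% identical. The A01 hairpin aligned to ath-MIR845a over 127 columns with 74% identical and to ath-MIR829 over 99 columns with 59.6% identical. The 2 Chinese cabbage hairpins aligned to each other over 39 columns only, with 74.4% identical. On A06, likeness to ath-MIR845b thus covered a shorter stretch than likeness to ath-MIR829. The miRBase hairpins themselves have 99 nt for ath-MIR845b and 205 nt for ath-MIR829, so the 2 stretches are not directly comparable.

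ath-miR845a was the most read member in both libraries, and it was far higher in the anthers. It had 95 reads in ‘Mix’ and 10546 in ‘Ant’, which the authors scaled to 96.52 and 10379.91 normalized reads. The ratio was 108-fold (interval 87.9 to 133), a log2 ratio of 6.75 (6.46 to 7.06). It ranked 23 among the 1152 sequences by reads in ‘Ant’ and 208 in ‘Mix’, and its share of the miRNA reads was 0.783% against 0.00682%. By ratio, with values under 3 reads set to 3, it ranked 6.

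aly-MIR845a-p5_1ss17GA, listed on the 5′ arm of the same hairpin but different from it by C14T, was detected in ‘Ant’ only. It stood at 661 reads there against 0 in ‘Mix’, which gives a bound of 213-fold when the 0 is set to the floor of 3 reads. This bound ranked 2 among the 1152 ratios. The exact interval, which also holds the counting error of the ‘Ant’ reads, starts lower, at 173-fold, a log2 ratio of 7.44.

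**Figure D2:**
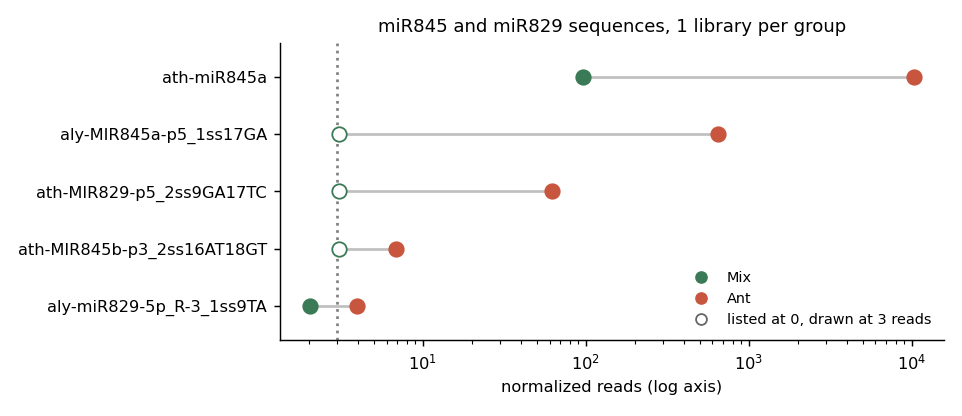
Normalized reads of the 5 sequences (horizontal log axis) in ‘Mix’ and ‘Ant’, 1 library each, with open points for sequences listed at 0, drawn at 3 reads, the dotted line. ath-miR845a runs from 96.52 to 10379.91, and the lowest pair, aly-miR829-5p_R-3_1ss9TA, from 2.03 to 3.94.

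ath-MIR829-p5_2ss9GA17TC, from the 5′ side of the A06 hairpin (A06:1612580-1612597), reached 63 reads in ‘Ant’ and stood at 0 in ‘Mix’. Its bound against the floor was 20.3-fold, and the exact interval of its ratio starts at 16.1-fold. ath-MIR845b-p3_2ss16AT18GT, listed on the 3′ side (A06:1612641-1612658), reached 7 reads in ‘Ant’ and stood at 0 in ‘Mix’. Here the bound was 2.26-fold, and the exact interval starts at 1.4-fold, a log2 ratio of 0.48. The sequences listed on the A06 hairpin together had 70 reads in ‘Ant’ and none in ‘Mix’, with the 5′ side ahead.

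aly-miR829-5p_R-3_1ss9TA had 2 reads in ‘Mix’ and 4 in ‘Ant’. The ratio was 1.94-fold with an interval from 0.278 to 21.4, and the sequence was not called (adjusted Fisher's exact p = 0.588). A difference between the libraries was not detectable at this depth, and the interval also holds ratios as large as the bound of ath-MIR829-p5_2ss9GA17TC. Of the 2 forms that differ by C17T, the one with 0 and 63 reads matched the genome and the one with 2 and 4 reads did not. These counts do not separate the ratios of the 2 forms.

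Ordered by reads in ‘Ant’, the members were ath-miR845a, aly-MIR845a-p5_1ss17GA, ath-MIR829-p5_2ss9GA17TC, ath-MIR845b-p3_2ss16AT18GT and aly-miR829-5p_R-3_1ss9TA. The last pair in this order, with 7 reads (exact Poisson interval 2.81 to 14.4) and 4 reads (1.09 to 10.2), did not differ beyond counting error. In ‘Mix’, 3 of the 5 members were listed at 0.

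Summed over distinct sequences, miR845 had 95 reads in ‘Mix’ and 11214 in ‘Ant’, a log2 ratio of 6.84 (interval 6.55 to 7.14). ath-miR845a held 94% of the ‘Ant’ sum and 100% of the ‘Mix’ sum. The miR829 sequences had 2 reads in ‘Mix’ and 67 in ‘Ant’, a log2 ratio of 5.02 (interval 3.11 to 8.10). The share of all 5 together among miRNA reads was 0.838% in ‘Ant’ and 0.00696% in ‘Mix’.

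A sequence was called when Fisher's exact test (two-sided) and a chi-square test each gave a p-value of at most 0.05 and the absolute log2 ratio was above 1, with a library at 0 taken as an unbounded ratio. Of the 5 members, 4 were called higher in ‘Ant’ and none lower. Except for ath-miR845a, the called members stood at 0 in ‘Mix’ and so could not have been called lower. The 4 were listed on the A01 and A06 hairpins and are not 4 separate loci. Over all 1152 sequences, 27.3% were called higher and 19.3% lower. The member with least support among the 4 was ath-MIR845b-p3_2ss16AT18GT, with an adjusted Fisher's exact p of 0.0138. By the 2-fold threshold alone, 4 members were higher and none lower, against 29.6% and 22.1% of all sequences. The same 4 were also called by edgeR's exact test when the coefficient of variation between plants was taken as 0.4. For ath-MIR845b-p3_2ss16AT18GT that call was close to the threshold (edgeR's exact test, unadjusted p = 0.0482). The median log2 ratio of the members was 4.35 with values under 3 reads set to 3, which is the bound of ath-MIR829-p5_2ss9GA17TC. That of all sequences was -0.01, and it was 0.28 over the 784 sequences with at least 10 reads in at least 1 library.

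**Figure D3:**
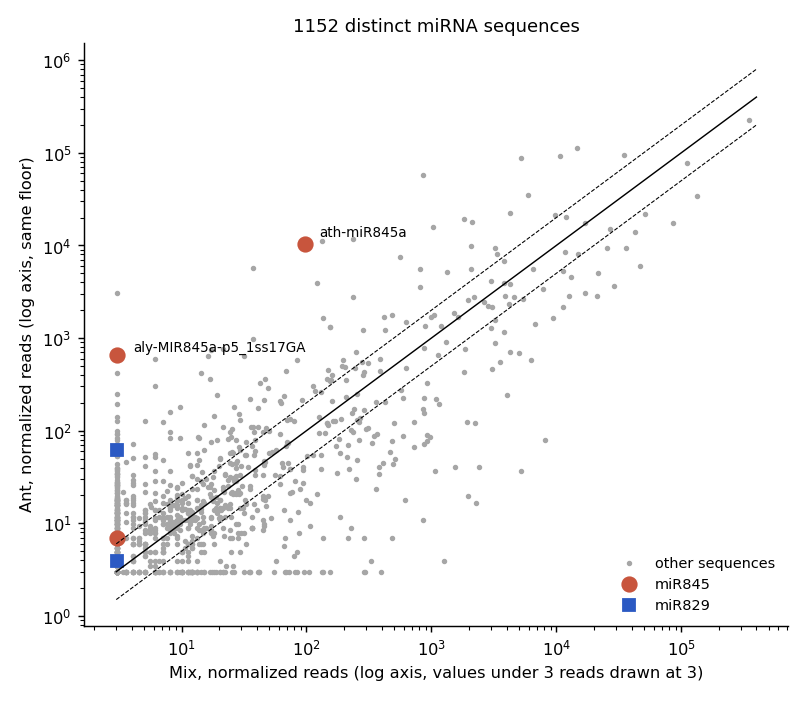
Normalized reads of 1152 distinct sequences in ‘Mix’ (horizontal) and ‘Ant’ (vertical), both on log axes with values under 3 reads drawn at 3 reads; the solid line marks equality and the dashed lines 2-fold differences. ath-miR845a and aly-MIR845a-p5_1ss17GA stand far above the upper dashed line, at 10379.91 and 650.59 normalized reads in ‘Ant’.

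Other miRNAs with numbers in the range of miR845 and miR829 had calls in both directions. The range was taken by number alone and holds families such as miR827 and miR858 that are also known outside the Arabidopsis lineage. Of 15 other sequences whose names lie between miR771 and miR870, 5 were called higher and 5 lower. Their median log2 ratio of -0.05 was that of eun-miR827-5p_L-1_2ss13CT21TA, with 0.33 reads in ‘Mix’ and 0 in ‘Ant’, both set to 3. This median therefore reflects the floor and the scaling factors, not a typical ratio of the list. The highest was ath-miR828, which in Arabidopsis targets MYB transcription factors, with 2 reads in ‘Mix’ and 39 in ‘Ant’. The lowest was bra-MIR824-p3, from the hairpin of miR824, a regulator of the MADS-box gene AGL16 in Arabidopsis, with 28289 reads in ‘Mix’ and 3724 in ‘Ant’. In a list of 288 sequences meant for conserved families, also taken by number alone, 76 were called higher and 90 lower. Whether each family in that list is conserved was not checked.

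The 3 sequences nearest to ath-miR845a in log2 ratio, among 81 others with at least 1000 normalized reads in ‘Ant’, were all Brassica miRNAs that start with T. bra-MIR9569-p5 had 132 reads in ‘Mix’ and 11383 in ‘Ant’, a log2 ratio of 6.38. bra-miR9556-3p had a log2 ratio of 7.26 and bra-MIR9569-p3 one of 6.08. The counting intervals of the first 2 (6.14 to 6.64 and 6.80 to 7.77) overlapped that of ath-miR845a, and that of bra-MIR9569-p3 (5.98 to 6.18) did not. With 2 libraries, this likeness is that of a single ratio.

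The use of the 2 arms was compared next, with each sequence counted on the arm where it was listed. The 5′ sequence on A01 and the 3′ sequence on A06 differ from their hairpins by C14T and A18T. Whether their reads came from these hairpins was not tested. On A01, the 3′ arm took 94.1% of the reads in ‘Ant’ (Wilson interval 93.7% to 94.5%), 16-fold more than the 5′ arm, and 100% in ‘Mix’ (96.1% to 100%). The 5′ arm share was 5.9% in ‘Ant’ (5.48% to 6.35%). In ‘Mix’ it was 0 of 95 reads, which allows up to 3.16% by the floor and 3.81% by the exact interval, so the intervals did not overlap. At the share of ‘Ant’, 5.6 reads of the 5′ arm would stand among 95. The shift of the 3′ share was -5.9 percentage points, and 97 of 179 other precursors with both arms and at least 50 reads in each library shifted further in either direction. Precursors were counted by position, so sequences listed at several positions entered more than once and the 179 are not all separate measurements. On A06, the sequence on the 3′ side took 10% of 70 reads in ‘Ant’ (Wilson interval 4.93% to 19.2%), and no share could be given for ‘Mix’. In ‘Ant’, the listed reads thus lay mostly on the 3′ arm on A01 and mostly on the 5′ side on A06. The 2 sequences on A06 formed no base pairs with each other in the listed structure. Their shares therefore do not show which strand of a duplex was kept, and arm preference on A06 was not tested.

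**Figure D4:**
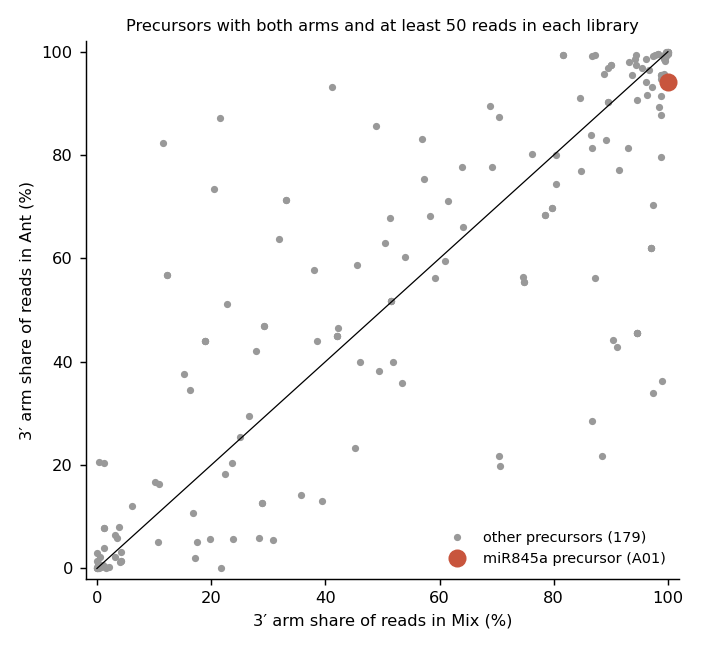
Share of reads on the 3′ arm, in percent, in ‘Mix’ (horizontal) and ‘Ant’ (vertical) for the A01 precursor and 179 other precursors, with the line of equal shares. The A01 precursor lies at 100% and 94.1%, close to the line.

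On A06, a sequence from the opposite strand went the other way. PC-3p-362601_6, which the authors predicted from a hairpin on the minus strand (A06:1612500-1612691), was chosen after its position was seen. It is shown because its complement overlaps the miR829 sequence.
PC-3p-362601_6: aatgttagatctagatcaaag
It lies against bases 31 to 51 of the plus-strand hairpin and faces the last 9 bases of ath-MIR829-p5_2ss9GA17TC. It had 24 reads in ‘Mix’ and 8.5 in ‘Ant’, a log2 ratio of -1.54 (interval -2.75 to -0.30). It was called lower, but not by edgeR's test at the coefficient of variation of 0.4. It is also listed at A08:7735131-7735232, so its reads cannot be assigned to A06 alone. No other record overlapped either hairpin.

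The 3′ arm sequences of miR845 had TCTGATACCAA as their longest shared run of letters. The run was in no other sequence of the table, on either strand. Without its last letter, TCTGATACCA, a shorter form chosen after the first search, it was in 6 of 1152 sequences (0.521%), the 2 members and 4 others, and its reverse complement was in none. The most read of the others and the 1 that was called higher are shown beside ath-miR845a, with the run in capitals.
ath-miR845a: cggcTCTGATACCAattgatg
ppe-miR1511-3p_L+1R-4: aacctggcTCTGATACCA
cme-miR1863_R-2_1ss1AC: cgcTCTGATACCAtgttagatt
ppe-miR1511-3p_L+1R-4, which is also listed as cas-miR5139_L-1, ends with the run and had 284.67 reads in ‘Mix’ and 170.33 in ‘Ant’, a log2 ratio of -0.79 (interval -1.07 to -0.51). cme-miR1863_R-2_1ss1AC had 12 reads in ‘Mix’ and 33 in ‘Ant’ (log2 1.41, interval 0.42 to 2.50), and edgeR's test at the coefficient of variation of 0.4 did not call it. mdm-miR1511_L+1R-1_2ss6AG21AT had 17.33 and 1.5 reads (log2 -3.58, interval -6.29 to -1.06) and was called lower. fve-miR1511_L-1_1ss5AG had 3.33 and 1.83 reads and was not called. None of these 4 has a genome match in the table, and none had a ratio near that of ath-miR845a.

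**Figure D5:**
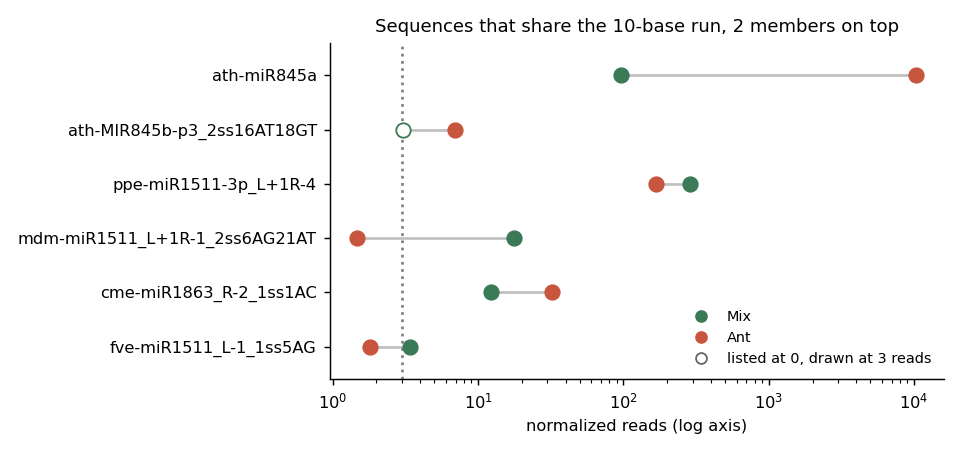
Normalized reads (horizontal log axis) in ‘Mix’ and ‘Ant’ of the 6 sequences that hold the run of 10 letters, the 2 miR845 members on top; open points are listed at 0 and drawn at 3 reads. ath-miR845a rises to 10379.91 in ‘Ant’, while ppe-miR1511-3p_L+1R-4 lies at 289.22 in ‘Mix’ and 167.65 in ‘Ant’.

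ath-miR845a starts with C, which in Arabidopsis is the first base that ARGONAUTE5 prefers. Sequences that start with C held 8.04% of the miRNA reads in ‘Mix’ (Wilson interval 7.99% to 8.08%) and 4.45% in ‘Ant’ (4.42% to 4.49%). Within this class, ath-miR845a took 0.0848% of the reads in ‘Mix’ and 17.6% in ‘Ant’, and moved from rank 25 to rank 2 among 134 sequences. Of these 134, 31 were called higher and 40 lower. Without ath-miR845a the class held 8.03% and 3.7%. The miRNA thus rose while the class it belongs to took a smaller share of the reads. Both miR829 sequences and aly-MIR845a-p5_1ss17GA start with A, and ath-MIR845b-p3_2ss16AT18GT starts with T.

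The table held 17 sequences of 18 nt, the shortest length kept, and 3 of them were members. Of these 3, 2 were called higher, and of the 14 others none was called higher and 5 were called lower. The 18-nt share of miRNA reads was 0.0791% in ‘Ant’ and 0.332% in ‘Mix’. Among the 566 sequences of 21 nt, the length of both sequences on A01, 33.7% were called higher.

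The A01 hairpin had a GC content of 43.8%, against a median of 34.7% over 739 precursors with a position. Its folding energy of -45.1 kcal/mol was weaker than the median of -70.1, and its folding score, the energy scaled by length and GC percent, was 0.8 against 1.3, rank 23 from the lowest. The A06 hairpin, with 33.3% GC, -61.7 kcal/mol and a score of 1.3, was close to the medians in GC content and score.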

How the data were processed

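Small RNA was sequenced from 1 ‘Ant’ and 1 ‘Mix’ library. After the authors had filtered out adapter dimers, sequences of low complexity and other RNA classes, unique reads between 18 and 25 nt were compared with miRBase hairpins and with the genome. The genome build of the small RNA positions is not given in the sources used here. The deposited reads are estimated counts, some with fractions, and per the file headers a value is the reads of the isoform at 1 end of a precursor, so how far trimmed forms are included is not given. The normalized signal was made by the authors, with each library's reads times a single factor (1.016 for ‘Mix’, 0.9843 for ‘Ant’). The GC percent, the folding energy and a folding score of each hairpin were deposited as well.

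Records (1359) were reduced to 1152 distinct sequences, each counted once. The rounded normalized values were set against the miRNA totals by Fisher's exact test (two-sided) and by a Pearson chi-square test (uncorrected), and p-values were adjusted by Benjamini-Hochberg over all sequences. Intervals are Clopper-Pearson for ratios and Wilson for shares. Ratios use the reads as listed, with a library at 0 set to 3 reads for a bound, and ranks and medians set all values under 3 reads to 3. Arms were read from the capitals of the listed hairpins and pairs from the listed structure. Likeness was taken from local alignments.

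Named were all members, records that overlap their hairpins, sequences with the shared run, and the 3 sequences nearest in ratio. The members and lists were chosen with earlier results of these data known. The alternatives were 4 scalings (valid reads, miRNA reads, TMM, median-of-ratios), names in place of sequences, a minimum of 10 reads, adjusted p-values, edgeR's exact test on rounded reads with a coefficient of variation of 0.4 assumed between plants, the fold alone, a stricter log2 threshold (2), other counting units, and pseudocounts of 1 or 10. The calls were tried on simulated pairs of libraries with 200 sequences changed 4-fold and counting noise alone. That simulation held no variation between plants, so it does not show how the calls behave under such variation. Python 3.11.15 (Biopython 1.88, scipy 1.17.1, numpy 2.4.6, statsmodels 0.14.6, pandas 2.3.3, matplotlib 3.10.9) and R 4.3.3 (edgeR 4.0.16, DESeq2 1.42.0) were used.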

Additional observations from a re-analysis of the deposited data

How the results depend on the processing

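Under each alternative of the calls that was run over the members, 4 members were called higher in ‘Ant’ and none lower. The number of calls over all sequences was 536, and edgeR's exact test, with 0.4 taken as the coefficient of variation, gave 340. The other alternatives at the same threshold gave 501 to 596 calls. The 4 scalings moved every log2 ratio by -0.28 to 0.10. Under TMM and median-of-ratios factors the bound of ath-MIR845b-p3_2ss16AT18GT was 0.97 and 0.90, below 2-fold. A pseudocount of 10 lowered it to 0.76, and the log2 ratio of the summed miR829 reads to 2.66. With a library at 0 taken as an unbounded ratio, that sequence also passed the log2 threshold of 2, which its bound of 1.18 does not reach. Of 30 log2 ratios of single members under the alternatives, none changed direction and 26 stayed on their side of 1. The 4 that crossed it were the 3 values of ath-MIR845b-p3_2ss16AT18GT above and aly-miR829-5p_R-3_1ss9TA, which rose from 0.95 to 1.05 when reads were scaled by the sum of miRNA reads and was still not called. Under TMM and median-of-ratios factors ath-MIR845b-p3_2ss16AT18GT was still called, because its 0 in ‘Mix’ counts as an unbounded ratio. With the pseudocount of 10 its ratio was no longer unbounded and lay below the log2 threshold of 1. Counting each distinct sequence once, C was the first base of 10.8% of the sequences found in ‘Ant’ and 11.7% in ‘Mix’. The arm shares did not move when every record overlapping a hairpin on its strand was counted. No library could be left out and no paired analysis was possible because each group has 1 library. Depth limits the 3 members of 18 nt most, which have at most 63 reads in a library.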

Other observations

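The run TCTGATACCA or its reverse complement was also found in the listed hairpins of 3 predicted miRNAs elsewhere in the genome, whose own sequences do not hold it. PC-3p-171710_11 (A10:19652357-19652517, minus strand) had 76 reads in ‘Mix’ and 22 in ‘Ant’, a log2 ratio of -1.83 (interval -2.59 to -1.13). PC-5p-95760_19 (A06:25444670-25444912, minus strand) had 60 and 27 reads (log2 -1.20, interval -1.91 to -0.52), and PC-3p-446231_5 (A05:6671801-6671988, minus strand) had 18 and 23 reads (log2 0.31, interval -0.65 to 1.28). The first 2 were called lower in ‘Ant’ and the third was not called. In all, 6 of 739 hairpins with a position (0.812%) held the run on either strand.

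The authors listed 11 miRBase hairpins for the A01 precursor, among them grapevine, strawberry and Camelina miR845 and ath-MIR829, and 3 for the A06 precursor. A strawberry miR845 hairpin was also listed for mdm-miR1511_L+1R-1_2ss6AG21AT, whose reads were lower in ‘Ant’.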
